A study of Homo sapiens with 18 samples.

Results

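The genes that define the epithelial and the mesenchymal state of a carcinoma cell were followed through OFD1 knockdown in 3 pancreatic cancer cell lines. The 10 genes were chosen by symbol, of 26668 gene symbols in the expression table, and all 10 were found there. They were the epithelial genes CDH1, EPCAM and ESRP1, the mesenchymal genes CDH2, VIM and FN1, and the transcription factors ZEB1, ZEB2, SNAI1 and SNAI2.

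Epithelial cells hold to each other through E-cadherin, the CDH1 product, and in the epithelial-mesenchymal transition (EMT) they lose it and take on N-cadherin (CDH2), the intermediate filament vimentin (VIM) and a fibronectin (FN1) matrix. Factors of the ZEB and Snail families bind E-boxes in epithelial genes, CDH1 among them, and repress them. ESRP1 is an RNA-binding protein that maintains epithelial splice forms, and EPCAM is an epithelial surface adhesion molecule. In pancreatic ductal adenocarcinoma the lines in culture span a range from epithelial to mesenchymal, and many hold both programs at once.

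RNA-seq was made from PANC-1, MIA PaCa-2 and PaTu 8988T cells, human pancreatic cancer lines kept in DMEM with serum, with 3 libraries of a control group and 3 of an shOFD1 group in each line, 18 in all. The shOFD1 cells received doxycycline, which switches on an shRNA against OFD1, a protein of centrioles and centriolar satellites, and were collected after 72 h. The controls received no treatment by their labels and carry a control shRNA and the genotype WT in these labels, whereas the methods of the study describe uninduced cells of the OFD1 shRNA lines given DMSO, and the series text places controls at day 0 and knockdown at day 3. Knockdown, doxycycline, cell derivation and time in culture therefore cannot be told apart here. Whether the lines were clones or pools is not given in the sources used here.

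The reads counted per library, recovered from the steps in the FPKM values, ran from 32486480 to 39797537. MIA PaCa-2 control replicate 2 stood apart, with an SD of 0.516 (log2) from the other replicates of its group, where no other library exceeded 0.281. For 4 PaTu 8988T libraries, replicates 2 and 3 of both groups, the source labels name PaTu 8989T or PaTu 8990T, and the titles were followed. Values of single libraries are therefore given for the members, with replicate 1 first, and other genes are given as means or changes over all 3 replicates. OFD1 itself fell in all 3 lines, from 5.43 ± 0.279 to 2.55 ± 0.263 FPKM in PANC-1, from 2.85 ± 0.509 to 1.82 ± 0.129 in MIA PaCa-2 and from 2.06 ± 0.112 to 0.911 ± 0.0679 in PaTu 8988T (mean ± SD, n = 3). The limma adjusted p values were 2.7e-06, 0.0232 and 5.47e-05, and that of MIA PaCa-2 rose to 0.0899 at most when 1 library was left out. In PaTu 8988T OFD1 reached the mean of 1 FPKM needed for a test only through its controls, so its call there is a description. The FPKM of OFD1 used a gene length of 4150 bases in PANC-1 and 9312 in the other lines. Its level in PANC-1 can therefore not be set against those of the other lines. Here n counts libraries. The sources do not say of these libraries in particular whether they came from separate cultures, and p-values may then measure only the spread between these libraries, which may be technical.

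Before knockdown the lines occupied different states. PANC-1 controls held both cadherins, with CDH1 at 6.81, 5.95 and 7.34 FPKM and CDH2 at 8.82, 8.96 and 8.52 FPKM. PaTu 8988T controls held CDH2 at 7.65, 8.01 and 8.08 FPKM but CDH1 only at 0.233, 0.378 and 0.216 FPKM, which rests on 146 reads. In MIA PaCa-2 neither was appreciable. CDH1 had 1 read in the 3 controls together and CDH2 was listed at 0 in all 6 libraries. Being listed at 0 is not proof of absence in this table. In MIA PaCa-2 68 genes at 0 in every library reached a mean of 10 FPKM or more in another line. The like counts were 122 in PANC-1 and 44 in PaTu 8988T. Such counts cannot tell genes that were not expressed from genes that were missed.

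EPCAM followed the order of CDH1, at 6.05 ± 0.38 FPKM in PANC-1, 3.38 ± 0.285 in PaTu 8988T and 0.033 ± 0.0572 in MIA PaCa-2, and no neighbours in that order overlapped. ESRP1 was scarce everywhere, with 37 reads over the 3 PANC-1 controls, 1 read in PaTu 8988T and a listing at 0 in MIA PaCa-2. PaTu 8988T thus carried EPCAM without appreciable ESRP1 and with little CDH1.

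VIM was the most abundant member in every line by FPKM, a per-length scale. Its controls stood at 3476, 3586 and 3475 FPKM in MIA PaCa-2, at 1402, 1409 and 1393 in PANC-1 and at 768, 800 and 780 in PaTu 8988T, with no overlap between lines. It took 0.75% to 0.773% of the reads counted in MIA PaCa-2 controls. FN1 was at 2.05 ± 0.118 FPKM in PANC-1, 1.64 ± 0.0444 in PaTu 8988T and 0.0415 ± 0.0133 in MIA PaCa-2, so the line richest in VIM held the least FN1.

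Of the transcription factors, ZEB1 was present in all lines at 6.27 ± 0.213 FPKM in PANC-1, 4.21 ± 0.994 in MIA PaCa-2 and 3.75 ± 0.151 in PaTu 8988T. The last pair overlapped. SNAI1 was at 3.31 ± 0.16 in PANC-1 and 3.01 ± 0.325 in MIA PaCa-2, which overlapped, and at 0.618 ± 0.103 FPKM in PaTu 8988T. SNAI2 was highest in PaTu 8988T at 0.747 ± 0.013 FPKM, and ZEB2 reached 0.246 ± 0.0375 FPKM in PANC-1 and at most 0.0234 elsewhere.

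**Figure D1:**
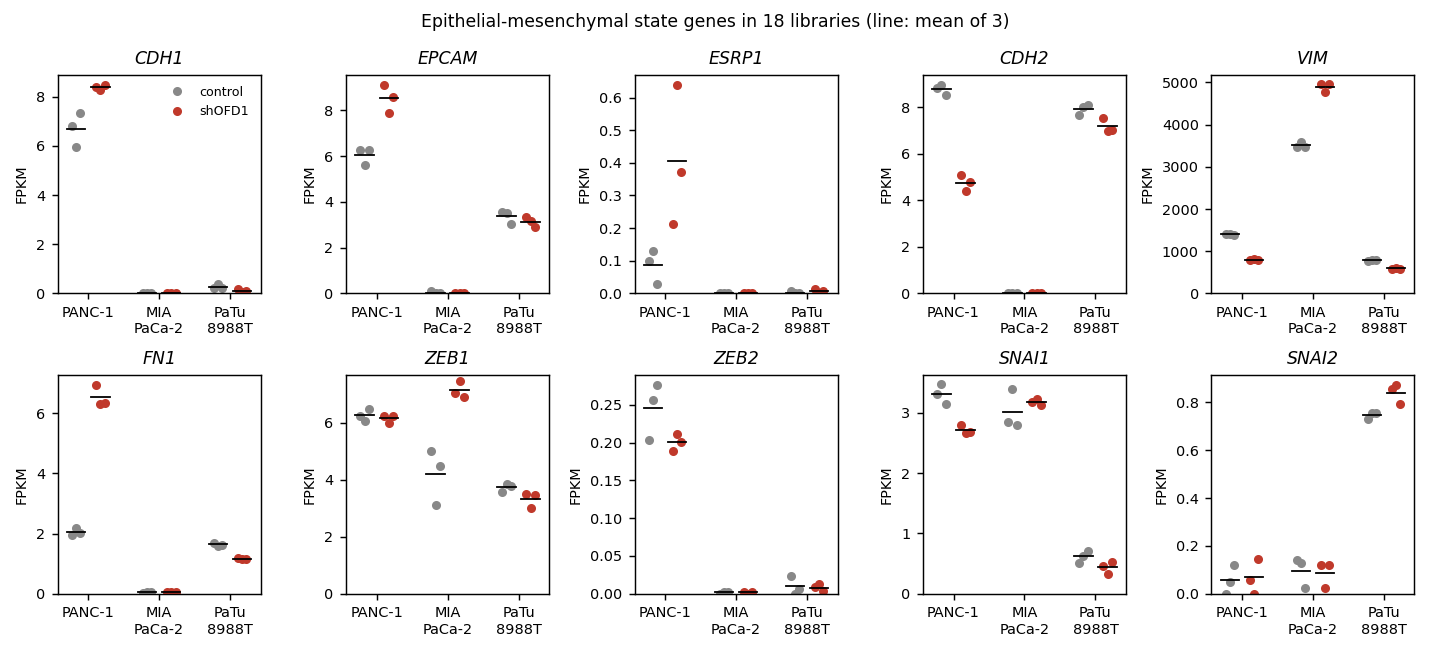
FPKM (linear axis from 0, a separate scale for each gene) of the 10 genes in each of the 18 libraries, grey for control and red for shOFD1, with a black line at the mean of 3. VIM fell in PANC-1 and PaTu 8988T and rose in MIA PaCa-2, FN1 rose in PANC-1, to a mean of 6.54 FPKM,, and CDH1, CDH2, EPCAM, ESRP1 and FN1 lie near 0 in MIA PaCa-2.

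The control level of MIA PaCa-2 and PaTu 8988T was compared directly, since the gene lengths behind the values were the same in 93.8% of 18548 genes. Of 5 members tested, 4 passed an adjusted p below 0.05 and a fold above 2 or below 0.5 (limma), beside 32.7% of all genes tested. CDH2, EPCAM and SNAI1 reached the filter only through the line where they are high and so had to differ, and their calls and the count are a description. VIM was higher in MIA PaCa-2 by 2.17 (log2, SE 0.0462, limma adjusted p = 6.82e-08) and SNAI1 by 2.12 (SE 0.145, limma adjusted p = 2.32e-05). CDH2 and EPCAM were lower, with no fold given for the former because it is listed at 0 in MIA PaCa-2 and none for EPCAM because its MIA PaCa-2 controls hold 6 reads, all in replicate 1. ZEB1 did not pass, at 0.13 higher in MIA PaCa-2 (95% interval -0.31 to 0.58, limma adjusted p = 0.544), and without MIA PaCa-2 control replicate 2 the difference was 0.33 with a limma adjusted p of 0.00342. PANC-1 values were made with other gene lengths for many genes, the same in 55.3% of 14930 genes, so no test was run on its levels. Of the member lengths compared, those of CDH1, ESRP1 and FN1 differed in PANC-1, to 0.986, 0.997 and 1.01 times those of PaTu 8988T, and the others were the same.

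In PANC-1, CDH1, EPCAM and FN1 were higher and CDH2 and VIM lower in the shOFD1 libraries than in controls. Of 10 members 7 reached a mean of 1 FPKM over the 6 libraries and were tested, and 6 had an adjusted p below 0.05, which 72.3% of all genes tested in this line also had. Past the added fold criterion was 1 member, FN1, beside 6.6% of all genes. The 3 members that rose and the 3 that fell compare with 40.1% and 32.2% of all genes, so the number called was not out of the ordinary for the line, and the values below describe the direction and size of each. All genes tested had a median log2 change of 0.06.

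CDH1 stood at 8.39, 8.25 and 8.48 FPKM after knockdown against 6.81, 5.95 and 7.34 in controls. Every shOFD1 library was above every control, as 75% of all genes tested also had no overlap between their groups, and the rise was 0.32 (log2, SE 0.0748, limma adjusted p = 0.00307). EPCAM went from 6.27, 5.61 and 6.28 FPKM to 9.11, 7.89 and 8.59, again without overlap, a rise of 0.49 (SE 0.0714, limma adjusted p = 0.000147). ESRP1 lay under the filter, with 14, 19 and 4 reads in controls and 27, 82 and 50 reads after knockdown. These groups did not overlap either. Without the filter on low values its change was 1.40 (log2, limma adjusted p = 0.0127), and with limma voom on the recovered reads it was 2.26 (adjusted p = 0.000482). The highest ESRP1 library reached 0.639 FPKM, so its level stayed far under those of CDH1 and EPCAM. In bulk RNA a change in the number of cells that express a gene and a change in its level per cell cannot be told apart.

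CDH2 went from 8.82, 8.96 and 8.52 FPKM to 5.08, 4.40 and 4.79. The groups were well separated, and the fall was to 0.547 of the control level (log2 -0.87, SE 0.066, limma adjusted p = 1.23e-06). VIM went from 1402, 1409 and 1393 FPKM to 784, 807 and 789, a fall to 0.566 of control (log2 -0.82, SE 0.0158, limma adjusted p = 1.18e-10). Its share of the reads counted was 0.3% to 0.304% in controls and 0.169% to 0.174% after knockdown. Both genes lay just outside the fold criterion.

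FN1 moved against the other mesenchymal members. It stood at 1.95, 2.18 and 2.02 FPKM in controls and at 6.94, 6.32 and 6.35 after knockdown, 1913 reads against 5648. The rise was 3.09-fold (log2 1.63, 95% interval 1.45 to 1.80, limma adjusted p = 4.27e-08). Fibronectin is a secreted glycoprotein that cells assemble into matrix fibrils.

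The transcription factors moved less. ZEB1 had 6.26, 6.06 and 6.49 FPKM in controls and 6.26, 5.98 and 6.26 after knockdown, which overlapped. Its interval of -0.15 to 0.11 (log2, limma adjusted p = 0.732) leaves no room for a change of the size seen in CDH2 or VIM. SNAI1 went from 3.31, 3.47 and 3.15 to 2.80, 2.68 and 2.68 FPKM, a fall (log2 -0.27, SE 0.0795, limma adjusted p = 0.0104), but with limma voom on the recovered reads, 607 against 461, the adjusted p was 0.16. ZEB2, at 0.204, 0.257 and 0.276 FPKM in controls and 0.189, 0.211 and 0.201 after knockdown, and SNAI2, with 13 reads against 15, were under the filter and overlapped.

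With CDH1 up and CDH2 down, their balance turned over in PANC-1. The ratio of CDH1 to CDH2 FPKM was 0.772, 0.665 and 0.862 in controls and 1.65, 1.88 and 1.77 after knockdown, so that CDH2 exceeded CDH1 in every control and CDH1 exceeded CDH2 in every shOFD1 library. The sum of both cadherins was 14.9 to 15.9 FPKM in controls and 12.7 to 13.5 after knockdown. In PaTu 8988T the ratio was 0.0305, 0.0472 and 0.0267 in controls and 0.0214, 0.00677 and 0.0152 after knockdown, lower in every shOFD1 library, on few CDH1 reads. In MIA PaCa-2 no ratio could be formed.

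The promoters of the 3 members with the largest changes among those tested in PANC-1 are shown because FN1 rose while VIM and CDH2 fell. Each is the 250 bases before a RefSeq start on GRCh38.p14, written 5′ to 3′ on the strand of the gene. Capitals mark matches, on either strand, to the cAMP response element TGACGTCA, the AP-1 site TGANTCA, the GC box GGGCGG and the E-box CACCTG. The windows are chr2:215436069-215436318 (minus strand) for FN1, chr10:17227991-17228240 (plus strand) for VIM and chr18:28177131-28177380 (minus strand) for the first of 2 CDH2 starts.
FN1: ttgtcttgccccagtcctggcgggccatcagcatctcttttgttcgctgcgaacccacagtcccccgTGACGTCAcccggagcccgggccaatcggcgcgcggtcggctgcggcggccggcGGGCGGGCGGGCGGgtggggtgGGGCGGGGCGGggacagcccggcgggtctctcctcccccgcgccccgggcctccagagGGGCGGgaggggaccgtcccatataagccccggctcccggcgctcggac
VIM: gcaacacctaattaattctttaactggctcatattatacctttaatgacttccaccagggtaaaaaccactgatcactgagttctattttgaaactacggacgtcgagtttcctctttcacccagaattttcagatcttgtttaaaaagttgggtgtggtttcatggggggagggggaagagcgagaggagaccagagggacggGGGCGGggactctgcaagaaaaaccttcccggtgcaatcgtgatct
CDH2: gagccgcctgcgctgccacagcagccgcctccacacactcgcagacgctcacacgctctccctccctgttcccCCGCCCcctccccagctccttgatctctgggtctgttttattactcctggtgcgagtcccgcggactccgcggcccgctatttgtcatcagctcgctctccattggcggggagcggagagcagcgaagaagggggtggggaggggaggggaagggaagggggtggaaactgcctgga
The FN1 window holds the cAMP response element, 183 bases before the start, a motif found in 1.65% of 35116 promoter windows of this length, and 6 GC boxes, of which 5 share bases with another. VIM and CDH2 hold 1 GC box each, which 42.6% of windows contain at least once. None of the 3 windows holds the E-box, which 17.5% of windows contain, or the AP-1 site, which 6.57% contain. The window of the second CDH2 start, not printed, holds 1 AP-1 match, 102 bases before the start, and no GC box. A match is a run of letters and not a measured site, and binding was not measured here. RefSeq windows were at hand for 5 members, FN1, VIM, CDH2, ZEB1 and ZEB2.

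In MIA PaCa-2, the knockdown was followed by a rise in VIM and ZEB1, and the epithelial genes stayed at or near 0. Only 3 members could be tested, and 2 had an adjusted p below 0.05, both higher, beside 40.4% of all genes (18.7% higher and 21.7% lower). None passed the fold criterion, which 7.75% of all genes did. The median log2 change of all genes tested was -0.03.

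VIM, already the highest of the 3 lines, went from 3476, 3586 and 3475 FPKM to 4954, 4778 and 4968. The groups were far apart, and the rise was 1.40-fold (log2 0.48, SE 0.04, limma adjusted p = 0.000388). VIM then took 1.03% to 1.07% of the reads counted. ZEB1 went from 5.03, 3.10 and 4.49 FPKM to 7.07, 7.47 and 6.91, without overlap, as for 59.3% of all genes tested, and with a wide spread among controls. The rise was 0.78 (log2, SE 0.181, limma adjusted p = 0.0152). It was 0.58 with a limma adjusted p of 6.38e-05 without control replicate 2, and the adjusted p lay between 0.0552 and 0.0649 when any of the 3 shOFD1 libraries was left out.

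SNAI1 had 2.85, 3.39 and 2.81 FPKM in controls and 3.19, 3.23 and 3.14 after knockdown, which overlapped. Its difference was 0.08 (95% interval -0.19 to 0.35, limma adjusted p = 0.6). CDH1 had 0, 0 and 1 reads in controls and 1, 0 and 6 after knockdown, EPCAM 6, 0 and 0 against 1, 1 and 1. CDH2 and ESRP1 were listed at 0 throughout. At these counts no change in the epithelial genes was detectable. FN1 had 9, 18 and 15 reads against 18, 13 and 13, and SNAI2 25 against 22 in total, both overlapping. ZEB2 had 2 reads in either group.

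In PaTu 8988T, VIM and FN1 fell together after knockdown. Of 5 members tested 2 had an adjusted p below 0.05, both lower, beside 39.4% of all genes (18.5% lower and 20.9% higher), and none passed the fold criterion, beside 1% of all genes. The median log2 change of all genes tested was 0.03. VIM went from 768, 800 and 780 FPKM to 581, 613 and 580, every library under every control, a fall to 0.755 of control (log2 -0.40, SE 0.0363, limma adjusted p = 4.29e-05). FN1 went from 1.69, 1.60 and 1.63 to 1.19, 1.16 and 1.16 FPKM, also without overlap, a fall (log2 -0.46, SE 0.0931, limma adjusted p = 0.00431).

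CDH2 had 7.65, 8.01 and 8.08 FPKM in controls and 7.52, 6.98 and 7.03 after knockdown. The libraries did not overlap, which 51.9% of all genes tested shared, and the difference of -0.14 (SE 0.055) did not pass (limma adjusted p = 0.0702). Without shOFD1 replicate 1 it was -0.17 with a limma adjusted p of 0.0396. ZEB1 had 3.58, 3.87 and 3.80 against 3.50, 3.00 and 3.46 FPKM and did not pass, at -0.17 (limma adjusted p = 0.112). EPCAM had 3.57, 3.52 and 3.05 against 3.35, 3.16 and 2.88 FPKM and overlapped, with a difference of -0.11 (95% interval -0.30 to 0.09, limma adjusted p = 0.36).

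CDH1 was under the filter in PaTu 8988T, with 42, 65 and 39 reads in controls and 29, 8 and 19 after knockdown. The groups did not overlap. Without the filter the difference was -0.89 (log2, limma adjusted p = 0.0674), and with limma voom on the recovered reads -1.46 (adjusted p = 0.00859). SNAI1 had 0.508, 0.632 and 0.712 FPKM against 0.461, 0.321 and 0.533, which overlapped. SNAI2 had 0.733, 0.755 and 0.755 FPKM against 0.858, 0.872 and 0.795, without overlap, and without the filter its difference of 0.15 did not pass (limma adjusted p = 0.482). ESRP1 and ZEB2 had at most 8 reads in a library.

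**Figure D2:**
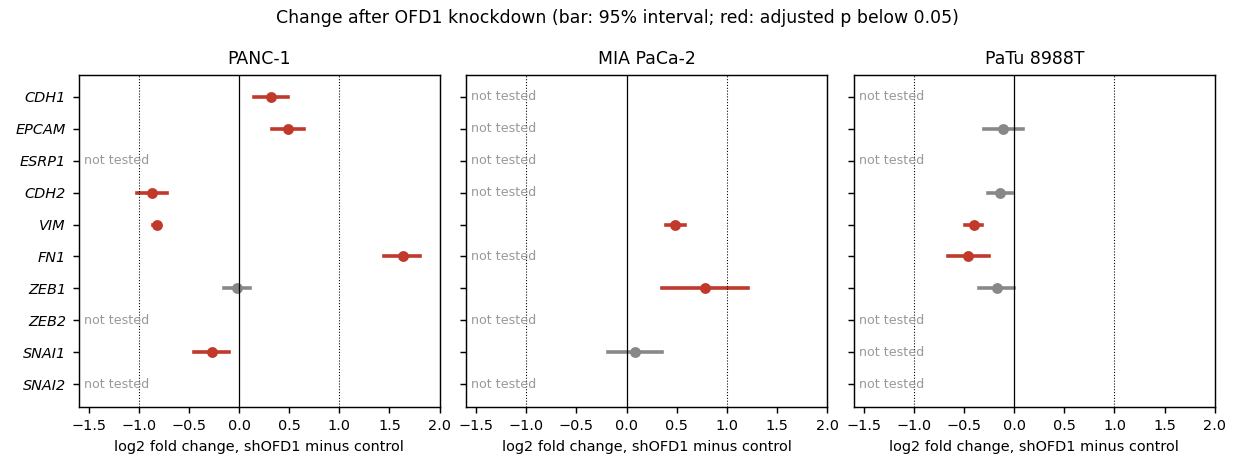
Log2 fold change (shOFD1 minus control) of each member in each line, with the 95% interval of the limma fit as a bar, red where the adjusted p was below 0.05, and dotted lines at the fold criterion. In PANC-1 FN1 lies at 1.63 past the line while CDH2 and VIM lie at -0.87 and -0.82, and VIM lies at 0.48 in MIA PaCa-2 and at -0.40 in PaTu 8988T. Members under the filter are written as not tested.

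The effects were then compared between lines by an interaction term, that is, a test of the difference between knockdown effects. Between PANC-1 and MIA PaCa-2, 3 of 3 members tested differed at an adjusted p below 0.05, beside 35.4% of all genes. VIM differed by -1.30 (log2, limma adjusted p = 4.3e-09), since it fell in the former and rose in the latter, and ZEB1 by -0.80 (limma adjusted p = 0.00865). SNAI1 differed by -0.36 (limma adjusted p = 0.0466), and over the alternatives its adjusted p ran from 0.00119 to 0.123.

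Between PANC-1 and PaTu 8988T, 4 of 5 members differed, beside 56.7% of all genes. FN1, which rose in PANC-1 and fell in PaTu 8988T, differed by 2.08 (log2, SE 0.109, limma adjusted p = 6.69e-10). EPCAM differed by 0.60 (limma adjusted p = 0.000441) and CDH2 by -0.73 (limma adjusted p = 3.25e-06). VIM fell in both lines, by more in PANC-1, with a difference of -0.42 (SE 0.0372, limma adjusted p = 1.85e-07). The ZEB1 effects differed by 0.15 (95% interval -0.06 to 0.36, limma adjusted p = 0.2).

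Between MIA PaCa-2 and PaTu 8988T, both members tested differed, beside 45.7% of all genes. VIM differed by 0.89 (log2, limma adjusted p = 5.16e-07) and ZEB1 by 0.95 (SE 0.206, limma adjusted p = 0.00313). These comparisons share libraries with each other, so their values are not independent.

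The wider pathway was read in 147 genes on 6 lists that leave out the 10 members. Tested in PANC-1 were 97, of which 4 rose and 8 fell past the threshold, beside 1.75% and 4.84% of all genes. In MIA PaCa-2 6 rose and 6 fell of 70 tested, beside 4.07% and 3.68%, and in PaTu 8988T 1 rose and 5 fell of 76 tested, beside 0.159% and 0.841%. RUNX2 and BAMBI in MIA PaCa-2, and HMGA2, SOX9 and TGFB2 in PaTu 8988T, reached the filter only through the group where they are high. They had to differ, so their calls, which the counts include, are a description. The list medians below stand beside the all-gene medians of 0.06, -0.03 and 0.03 in PANC-1, MIA PaCa-2 and PaTu 8988T.

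Among junction and polarity genes the calls were mixed in PANC-1 and mostly upward in MIA PaCa-2. In PANC-1 1 rose and 1 fell of 25 tested (median -0.15), in MIA PaCa-2 2 rose and 1 fell of 16 (median 0.31), and in PaTu 8988T none passed of 21 (median -0.12). By the adjusted p alone (limma), PANC-1 had 7 higher and 10 lower, beside 40.1% and 32.2% of all genes tested. MIA PaCa-2 had 8 higher and 1 lower, beside 18.7% and 21.7% of all genes. PaTu 8988T had 3 higher and 8 lower, beside 20.9% and 18.5% of all genes. CLDN1, a tight-junction claudin, had 17.1 ± 0.897 FPKM in PANC-1 controls and 39.6 ± 0.912 after knockdown, a rise of 1.21 (log2, limma adjusted p = 6.16e-09). In MIA PaCa-2 it rose by 1.69 (limma adjusted p = 0.000315), and in PaTu 8988T by 0.53 (limma adjusted p = 7.48e-06), where the fold criterion was not met. PKP3, a desmosomal plakophilin, fell in PANC-1 (-1.09, limma adjusted p = 1.55e-06) and in MIA PaCa-2 (-1.21, limma adjusted p = 0.00869), where control replicate 2 held 51.3 FPKM against 28.0 and 27.1. CLDN4, another claudin, rose in MIA PaCa-2 by 1.50 (limma adjusted p = 0.00515), with the same control library at 9.61 FPKM against 5.09 and 4.74. In PANC-1 CLDN4 was lower (log2 -0.82, limma adjusted p = 1.48e-08), under the fold criterion. The desmosomal cadherin DSG2 went to 0.68 of control in PaTu 8988T (limma adjusted p = 3.36e-05).

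Among epithelial regulators and surface genes, MUC1, a membrane mucin, went opposite ways. It rose in MIA PaCa-2 from 1.30 ± 0.143 to 6.14 ± 0.268 FPKM (log2 2.16, limma adjusted p = 0.000156) and fell in PaTu 8988T from 7.91 ± 0.791 to 3.75 ± 0.406 FPKM (log2 -1.06, limma adjusted p = 4.29e-05). It was the only gene of its list past the threshold in either line, of 8 and 7 tested. None passed of 12 in PANC-1, where MUC1 was lower (log2 -0.43, limma adjusted p = 0.000209). There the smallest adjusted p values were those of SPINT2, a protease inhibitor, at -0.34 (limma adjusted p = 7.94e-08) and of KLF4, a transcription factor, at 0.78 (limma adjusted p = 1.38e-05). The list medians were -0.01, 0.18 and -0.21 in PANC-1, MIA PaCa-2 and PaTu 8988T.

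Of the other cadherins and catenins, 1 of 5 tested passed in PANC-1. This was CDH3, P-cadherin, which fell from 2.86 ± 0.173 to 1.28 ± 0.152 FPKM (log2 -1.11, limma adjusted p = 1.25e-05), so that the 2 cadherins CDH2 and CDH3 were lower where CDH1 was higher. None of 3 tested passed in MIA PaCa-2 or in PaTu 8988T. The cytoskeletal linker VCL differed by 0.56 in MIA PaCa-2 (limma adjusted p = 0.00196) and by -0.05 in PaTu 8988T (limma adjusted p = 0.215), the alpha-catenin gene CTNNA1 by -0.28 in MIA PaCa-2 (limma adjusted p = 0.0111) and the beta-catenin gene CTNNB1 by 0.11 in PaTu 8988T (limma adjusted p = 0.0241). The list medians were -0.35, -0.12 and 0.02.

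Other transcription factors linked with EMT passed the threshold. No ZEB or Snail gene did after knockdown, but ZEB2 and SNAI2 were under the filter in every line and SNAI1 in PaTu 8988T. Genes under the filter could not be called, so the families are not compared. The calls of RUNX2 in MIA PaCa-2 and of HMGA2 and SOX9 in PaTu 8988T are a description, as given above. HMGA2, a chromatin protein of the high mobility group, fell in PANC-1 from 46.5 ± 0.572 to 9.99 ± 0.151 FPKM (log2 -2.21, limma adjusted p = 4.05e-11). In PaTu 8988T it fell from 1.89 ± 0.0655 to 0.769 ± 0.0442 FPKM (log2 -1.19, limma adjusted p = 3.31e-05), and it was not tested in MIA PaCa-2. SOX4 rose in PANC-1 by 1.19 (limma adjusted p = 5.73e-10) and was lower in PaTu 8988T (log2 -0.52, limma adjusted p = 0.00488), under the fold criterion. SOX9, a factor of ductal and progenitor cells, fell in PaTu 8988T (log2 -1.35, limma adjusted p = 1.67e-05). In MIA PaCa-2 RUNX2 rose by 1.93 (limma adjusted p = 0.000887), from 0.416 ± 0.135 to 1.83 ± 0.168 FPKM, and FOXC1 fell (log2 -1.10, limma adjusted p = 0.00127). Past the threshold were 2 of 11, 2 of 8 and 2 of 8 tested in PANC-1, MIA PaCa-2 and PaTu 8988T, and the medians were -0.08, -0.09 and -0.13.

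The mesenchymal cytoskeleton, surface and matrix list held the most calls in PANC-1, 2 that rose and 5 that fell of 22 tested (median -0.32). The hyaluronan receptor CD44 fell from 123 ± 1.43 to 47.1 ± 0.693 FPKM (log2 -1.39, limma adjusted p = 8.96e-11) and the membrane-cytoskeleton linker MSN from 144 ± 3.53 to 56.9 ± 1.5 (log2 -1.34, limma adjusted p = 2.48e-10). The 2 that rose, LOX (1.04, limma adjusted p = 2.42e-05) and THBS1 (1.03, limma adjusted p = 4.81e-06), encode a matrix cross-linking oxidase and a secreted matrix glycoprotein. The related gene LOXL2 was lower in PANC-1 (log2 -0.89, limma adjusted p = 4.57e-08), under the fold criterion. In PaTu 8988T LOX fell (log2 -1.05, limma adjusted p = 1.52e-05), the 1 gene of 20 tested past the threshold (median -0.08). In MIA PaCa-2 2 of 17 rose and none fell past the threshold (median -0.05). These were ACTA2, smooth muscle actin, from 1.24 ± 0.095 to 5.03 ± 0.268 FPKM (log2 1.94, limma adjusted p = 0.000168), and AKAP12, a scaffold of protein kinase A, by 1.03 (limma adjusted p = 0.00102).

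TGF-beta is a known inducer of EMT. Of its ligands, TGFB2 rose in PaTu 8988T from 0.653 ± 0.0813 to 2.41 ± 0.132 FPKM (log2 1.74, limma adjusted p = 7.48e-06) and was 0.76 higher in PANC-1 (limma adjusted p = 8.22e-08), under the fold criterion. TGFB1, named after its values were seen, was lower in the same lines, at -0.50 in PANC-1 (limma adjusted p = 4.31e-05) and -0.25 in PaTu 8988T (limma adjusted p = 0.00339), and TGFB3 was higher in PANC-1 (0.34, limma adjusted p = 0.0298) and in MIA PaCa-2 (0.54, limma adjusted p = 0.00424). The ID genes, targets of BMP signalling, were all lower in MIA PaCa-2 and all higher in PANC-1, where none met the fold criterion. In MIA PaCa-2 the values were -1.23 for ID1 (limma adjusted p = 0.000964), -1.23 for ID2 (limma adjusted p = 0.00531) and -1.17 for ID3 (limma adjusted p = 0.00126). In PANC-1 they were 0.21 for ID1 (limma adjusted p = 3.28e-05), 0.71 for ID2 (limma adjusted p = 0.000302) and 0.96 for ID3 (limma adjusted p = 2.21e-09). ID1 also fell in PaTu 8988T (-1.45, limma adjusted p = 8.61e-06). The pseudoreceptor BAMBI fell in MIA PaCa-2 (log2 -1.79, limma adjusted p = 0.00566). In all none of 22 passed in PANC-1, 4 of 18 fell in MIA PaCa-2, and 1 rose and 1 fell of 17 in PaTu 8988T, with medians of 0.11, -0.14 and -0.14.

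**Figure D3:**
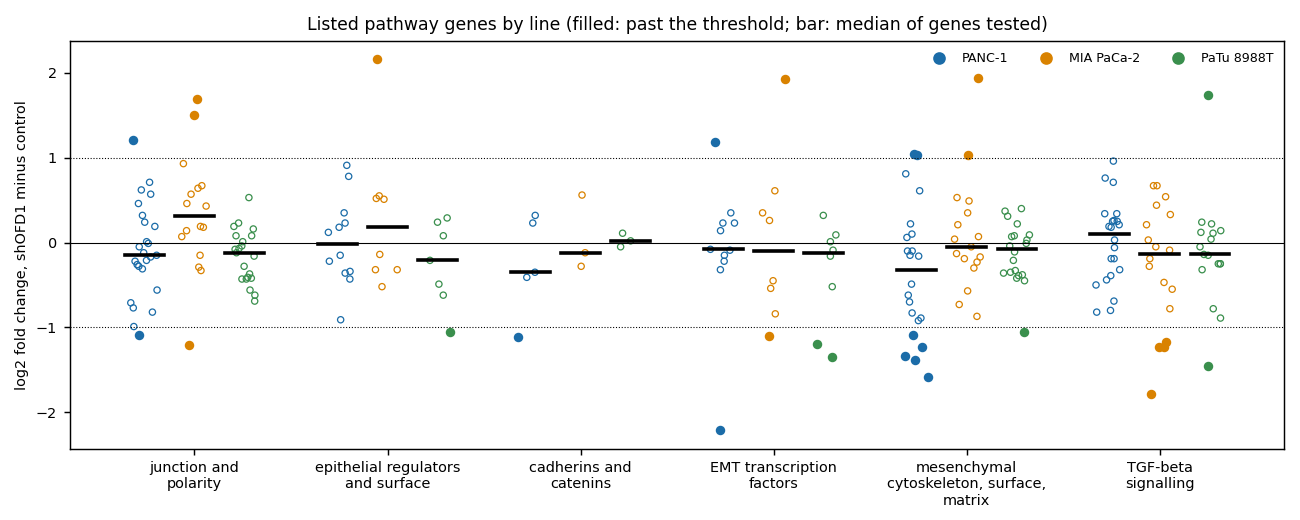
Log2 fold change (shOFD1 minus control) of every tested gene on the 6 lists, members left out, in PANC-1 (blue), MIA PaCa-2 (orange) and PaTu 8988T (green), with filled points past the threshold, black bars at list medians and dotted lines at the fold criterion. The mesenchymal list in PANC-1 has its median at -0.32, and the junction list in MIA PaCa-2 at 0.31.

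The genes most like VIM and ZEB1, the members tested in all 3 lines, were sought over the 18 libraries after the mean of each line was subtracted, among 9083 genes. For VIM these were PLAU, the urokinase gene, with Pearson's r of 0.982, and SCD, a fatty acid desaturase, with 0.978. PLAU differed by -1.77, 1.33 and -0.59 (log2) in PANC-1, MIA PaCa-2 and PaTu 8988T, the directions of VIM with larger sizes. For ZEB1 these were PGAP1 at 0.972 and USP32 at 0.971. The points share libraries and their knockdown contrast, and the values are a description.

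Markers of the labelled type and of other cells were read beside these results. The ductal keratin sum was 921 to 943 FPKM in PANC-1 controls and 904 to 926 after knockdown, 1616 to 2197 and 1359 to 1392 in MIA PaCa-2, and 1041 to 1065 and 834 to 906 in PaTu 8988T. The PANC-1 sum covers keratins that moved apart. KRT19, a ductal keratin, was at 174 to 184 FPKM in controls and 85.7 to 91.5 after knockdown, lower in every library, while KRT8 went from 412 to 425 FPKM in controls to 493.6 to 509.7 after knockdown. KRT19 was at 0.0194 FPKM at most in PaTu 8988T. The sum there came from KRT8 and KRT18, with the other 3 of the 5 keratins under 1 FPKM. The sum of 6 fibroblast markers in MIA PaCa-2 moved with VIM, from 158 to 188 FPKM in controls to 234 to 236 after knockdown, and came from COL1A2 and COL3A1, with the other 4 under 1 FPKM. It was 35.3 to 37.2 and 40.3 to 40.7 in PANC-1, and 2.96 to 3.30 and 3.08 to 3.78 in PaTu 8988T, with DCN at 0 in both lines. Its part in the VIM result was not tested. The leukocyte sum, mostly CD68, was 32.0 to 37.8 and 17.0 to 19.6 FPKM in PANC-1 and 49.3 to 67.4 and 73.2 to 77.0 in MIA PaCa-2. It was 13.6 to 13.9 and 9.77 to 11.7 in PaTu 8988T, with CD3E at 0 in all lines. In MIA PaCa-2 the sum included PTPRC, a leukocyte marker, at 2.32 to 4.45 FPKM in controls and 5.89 to 6.22 after knockdown. PTPRC was at most 0.0773 FPKM in PANC-1 and 0.00435 in PaTu 8988T. The part of the leukocyte sum in the VIM result was not tested either. Endothelial and endocrine sums were at most 0.318 FPKM, and acinar sums at most 1.05 in PANC-1 and 0 in the other lines.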

How the data were processed

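RNA-seq libraries were made from 6 groups of 3. The study's methods name HISAT2 as the aligner and HTSeq-count as the counter, and the authors deposited FPKM values per gene (reads scaled by gene length and by library size). The labels name RNeasy and a SMARTer kit and the methods TRIzol and a VAHTS kit. The build used and strand setting are not given unambiguously in the sources used here, so antisense reads at VIM, ZEB1 and ZEB2 cannot be told apart. Reads recovered from the FPKM steps came out whole (within 0.01) in all genes above 0 but 1, and gave the depth.

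Log2(FPKM + 0.1) of genes with a mean of at least 1 FPKM was fitted within each line with limma 3.58.1 (R 4.3.3, lmFit and eBayes with trend) and Benjamini-Hochberg adjustment over all genes tested. Fold changes are on that scale, which understates low genes. The threshold was an adjusted p below 0.05 with a fold above 2 or below 0.5, as in the study. Exact permutation of 3 against 3 cannot go below 0.1. The fits were tested on simulated data with the same spread in every line and planted changes larger than those of most members. The wider spread of the MIA PaCa-2 controls was not covered. Besides the members and OFD1, up to 3 rises and 3 falls past the threshold without overlap were named per list and line, else the 2 smallest adjusted p, and the 2 genes most correlated with members tested in every line. A gene that this rule names is not reported here. The members and lists were chosen with earlier results of these data known, and the motifs other than the E-box, and the voom fit, after seeing the data. Figures were drawn with matplotlib 3.10.9.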

Additional observations from a re-analysis of the deposited data

Results flagged for a closer look

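The knockdown effect of 6 members differed between lines by the interaction test (limma, adjusted p below 0.05). Of all genes tested, 35.4% differed for PANC-1 minus MIA PaCa-2 and 56.7% for PANC-1 minus PaTu 8988T. For MIA PaCa-2 minus PaTu 8988T the share was 45.7%. PANC-1 minus MIA PaCa-2 gave -1.30 (log2) for VIM, -0.80 for ZEB1 and -0.36 for SNAI1. For SNAI1 the limma adjusted p ran from 0.00119 to 0.123 over the alternatives. PANC-1 minus PaTu 8988T gave 0.60 for EPCAM, -0.73 for CDH2, -0.42 for VIM and 2.08 for FN1. MIA PaCa-2 minus PaTu 8988T gave 0.89 for VIM and 0.95 for ZEB1. VIM and FN1 changed in opposite directions in different lines, with no overlap between control and shOFD1 libraries within any of these lines. Groups also did not overlap in 75%, 59.3% and 51.9% of all genes tested in PANC-1, MIA PaCa-2 and PaTu 8988T. For ZEB1, the values without MIA PaCa-2 control replicate 2 were -0.60 and 0.75.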

How the results depend on the processing

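Each result was recomputed with a pseudocount of 1 or 0.01, no filter, a mean of at least 5 FPKM, median-centred libraries, no variance trend, a replicate block, each library left out, and limma voom on recovered reads (at least 10 on average), the last chosen after seeing the data. Over these, 476 values for single genes and 180 counts kept their direction and side of the threshold or stayed within 1.5 times, while 24 values for single genes lost the call and 2 gained it. Members past the threshold numbered 2 in PANC-1 with no filter or voom and 0 at 5 FPKM, since fewer genes were tested, and 1 in PaTu 8988T with voom. Listed genes past it numbered 20 in PANC-1 with voom, 6 at 5 FPKM and 20 with voom in MIA PaCa-2, and 2 with a pseudocount of 1, 1 at 5 FPKM and 11 with voom in PaTu 8988T. Members with an adjusted p below 0.05 numbered 1 to 2 in MIA PaCa-2 when each library was left out, and 1 in PaTu 8988T at 5 FPKM. Effects that differed numbered 2 for PANC-1 minus PaTu 8988T at 5 FPKM, and for MIA PaCa-2 minus PaTu 8988T 4 with no filter and 1 at 5 FPKM. For the controls of MIA PaCa-2 and PaTu 8988T 7 members passed with no filter or voom and 1 at 5 FPKM. Without the FPKM filter, members near 0 in MIA PaCa-2 were tested too, such as FN1 at 0.0415 FPKM in controls, so these counts are a description. With each library left out, ZEB1 ran from -0.05 to 0.00 in PANC-1 and from -0.01 to 0.33 between the controls of MIA PaCa-2 and PaTu 8988T. The negative value came without MIA PaCa-2 control replicate 1. Other than by the number of genes tested, the cause was not tested.

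Replicate numbers were not shown to pair the libraries, with correlations of deviations from -0.11 to 0.13. With the replicate block the SNAI1 difference of -0.36 between PANC-1 and MIA PaCa-2 had a limma adjusted p of 0.105, and no other call on a member changed. Depth limits ESRP1, ZEB2 and SNAI2 in all lines and CDH1 outside PANC-1.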
